A study of Danio rerio with 12 samples.

Results

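The 5 genes described here are an RPE65 gene (ENSDARG00000007480), rlbp1b (ENSDARG00000045808), pmelb (ENSDARG00000033760), DCT (ENSDARG00000006008) and pnp4a (ENSDARG00000057575), taken by their Ensembl identifiers from the 25473 genes of a zebrafish count table. They stand for the retinal pigment epithelium on one side and for pigment cells of the neural crest on the other. They were picked because of how they differed between the genotypes of these same libraries, so their levels and fold changes are given as a description, without a test. The symbol list supplied with the data gives some genes a human-style symbol, so that RPE65 stands for 3 genes of the table, and RPE65 without an identifier means the first of them below. All 5 passed the filter on low counts, which left 19493 genes.

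Polyadenylated RNA was taken from whole larvae at 3 days post-fertilization. The 3 genotypes, with 4 libraries each, were wild type (WT), yap-/- (the yap mutant) and yap-/-;taz-/- (the yap taz mutant). The sources used here do not give the kind of mutation, the strain or how many larvae went into a library. Libraries held 7028251 to 8657381 counts, and levels are counts scaled to a common total with TMM factors (CPM). A count of 0 allows up to 3 counts, which is 0.347 to 0.427 CPM depending on the library and covers counting error only. Of the targeted genes, YAP1 was at 78.3 to 97.8, 51.7 to 69.8 and 64.6 to 73.1 CPM in the order WT, yap mutant, yap taz mutant, so that WT lay above both mutants. WWTR1, the gene of Taz, was at 5.4 to 8.34, 9.22 to 11.4 and 4.48 to 6.61 CPM, so that the yap taz mutant lay below the yap mutant and overlapped WT. Where 3 levels are given in a row below, they are means ± SD over 4 libraries in that same order. A whole-larva library mixes all organs: fewer cells of a type and less RNA per cell cannot be told apart in it.

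The retinal pigment epithelium is the pigmented sheet behind the photoreceptors. It turns spent retinoid back into the chromophore of the visual pigments, takes up shed photoreceptor outer segments and makes its melanin itself, from neuroepithelium of the optic cup. The body's pigment cells come instead from the neural crest and in zebrafish are black melanophores, reflective iridophores and yellow xanthophores. Melanin genes are therefore shared by pigment epithelium and melanophores, while retinoid-cycle genes belong to the eye and purine-crystal genes to iridophores. Yap and Taz, the co-activators restrained by the Hippo kinases, have been linked in zebrafish to the identity of the retinal pigment epithelium. The comparison of the 3 genotypes asks how the 2 kinds of pigmented tissue read out when yap is lost alone and with taz.

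All 5 genes stood lower in the yap taz mutant than in WT, and those of the retinoid cycle were already at less than 50% of WT in the yap mutant. The mean level in the yap mutant was 44.1 ± 12.5% of the WT mean for RPE65 (SD, n = 4), 43 ± 17.8% for rlbp1b, 63.2 ± 21% for pmelb, 63.5 ± 11.2% for pnp4a and 82.9 ± 16.1% for DCT. In the yap taz mutant it was 14.6 ± 3.5% for pmelb, 16.1 ± 3.7% for RPE65, 17.8 ± 5.58% for rlbp1b, 30.8 ± 3.43% for pnp4a and 44.8 ± 4.98% for DCT. DCT thus kept the most in both mutants, and pmelb moved from the middle of the 5 in the yap mutant to the lowest share in the yap taz mutant, although there the ranges of pmelb (11.8 to 19.7%), RPE65 (12.7 to 21%) and rlbp1b (10.8 to 23.5%) overlapped.

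RPE65 encodes the isomerase that rebuilds the visual chromophore precursor in the pigment epithelium. Its level in WT 1 to 4 was 46.8, 45.7, 32.2 and 41.3 CPM. In yap mutant 1 to 4 it was 15.4, 14.2, 25.7 and 17.8 CPM. In yap taz mutant 1 to 4 it was 5.81, 5.26, 8.72 and 7.02 CPM. The 3 genotypes did not overlap, WT 3 was the lowest of its group and yap mutant 3 the highest of its own. The log2 fold change was -1.18 ± 0.172 (SE) in the yap mutant against WT, -2.64 ± 0.196 in the yap taz mutant against WT and -1.46 ± 0.206 between the mutants. In the same comparisons 0.231%, 0.2% and 0.467% of the genes tested had lower fold changes. Nothing is read from these ranks, because the gene was picked on these comparisons.

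rlbp1b is one of 2 zebrafish genes for the cellular retinaldehyde-binding protein, which carries visual-cycle retinoids and in mammals is made by both pigment epithelium and Müller glia. Its level was 10.2, 12.4, 8.73 and 8.98 CPM in WT 1 to 4. It was 4.35, 6.21, 4.87 and 1.91 CPM in yap mutant 1 to 4. It was 1.09, 2.1, 2.37 and 1.62 CPM in yap taz mutant 1 to 4. Every mutant library was below every WT library, but yap mutant 4 lay within the range of the yap taz mutant, so the order of the mutants does not exceed their spread. The rlbp1b values in yap taz mutant libraries rest on 9 to 16 counts each. The log2 fold changes were -1.21 ± 0.255, -2.5 ± 0.295 and, between the mutants, -1.28 ± 0.324.

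pmelb encodes a premelanosome protein, whose fibrils form the scaffold on which melanin is laid down. In WT 1 to 4 it was at 14.3, 18.4, 14.8 and 16.3 CPM. In yap mutant 1 to 4 it was at 11.3, 6.72, 14.2 and 8.14 CPM. In yap taz mutant 1 to 4 it was at 3.15, 2.23, 2.07 and 1.89 CPM. The yap mutant libraries reached from just under the WT range, in yap mutant 3, to less than 50% of the WT mean, in yap mutant 2, whereas the yap taz mutant libraries were low together. The log2 fold change was -0.66 ± 0.192 in the yap mutant against WT and -2.75 ± 0.236 in the yap taz mutant against WT. The step between the mutants was -2.09 ± 0.246. It was lower for 0.159% of the genes tested, a rank from which nothing is read, since pmelb was picked on these comparisons.

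DCT encodes dopachrome tautomerase, an enzyme of eumelanin synthesis. Its level in WT 1 to 4 was 41.7, 42.9, 37.4 and 57.2 CPM. In yap mutant 1 to 4 it was 44.2, 29.2, 42.1 and 33.1 CPM. In yap taz mutant 1 to 4 it was 22, 19.3, 21.7 and 17.3 CPM. WT and yap mutant overlapped, with yap mutant 1 and 3 inside the WT range, and the yap taz mutant was apart from both. The log2 fold changes were -0.27 ± 0.142, -1.16 ± 0.15 and, between the mutants, -0.89 ± 0.152. The first of them was -0.13 without WT 4 and -0.17 without yap mutant 2.

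pnp4a encodes a purine nucleoside phosphorylase and is the usual marker of iridophores, whose reflecting platelets are crystals of purine. It stood at 46.3, 35.7, 41.1 and 43.8 CPM in WT 1 to 4. It stood at 28.1, 21.7, 32.3 and 23.9 CPM in yap mutant 1 to 4. It stood at 11.3, 12.2, 13.3 and 14.6 CPM in yap taz mutant 1 to 4. The 3 genotypes did not overlap, and the spread in the yap taz mutant was small beside the gap to the yap mutant. The log2 fold changes were -0.66 ± 0.121, -1.7 ± 0.13 and -1.05 ± 0.134.

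**Figure D1:**
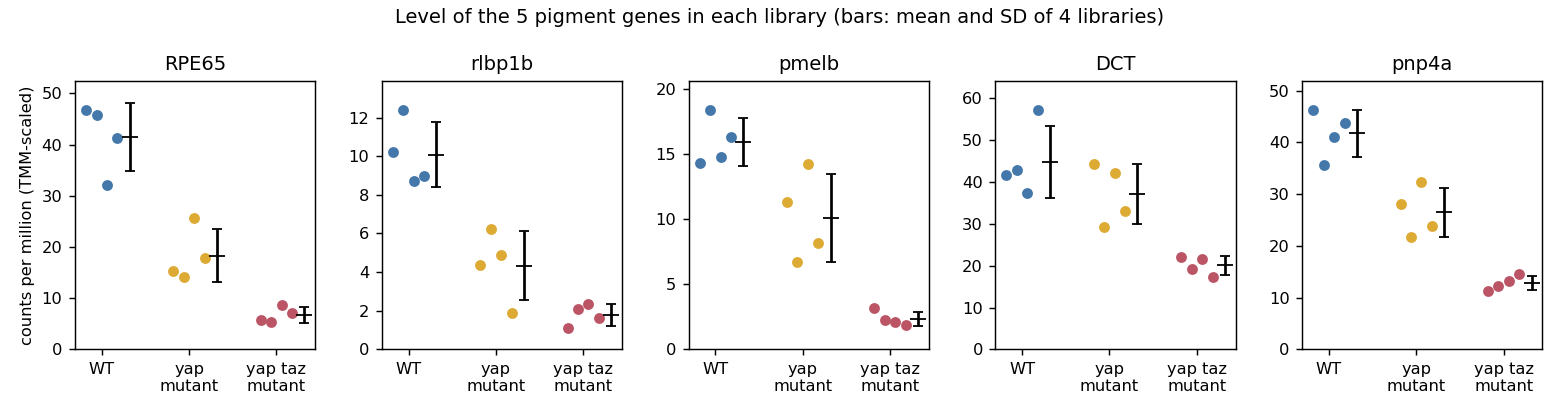
Level of each gene in CPM (vertical axes, each starting at 0) by genotype, with 1 point per library in the order of the replicate numbers and black bars for the mean and SD of 4 libraries. WT and yap mutant points overlap for DCT (37.4 to 57.2 against 29.2 to 44.2 CPM) and for no other gene, and yap and yap taz mutant points overlap for rlbp1b alone.

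Counted by overlap, 4 of the 5 genes had all yap mutant libraries below all WT libraries (DCT being the exception), which held for 5.36% of all genes tested. All 5 did in the yap taz mutant against WT, with a background of 14.4%, and 4 did between the mutants (rlbp1b being the exception), with a background of 5.53%. Nothing is read from these counts, because the genes were picked on these comparisons. The 2 comparisons against WT share the WT libraries. Under the 20 alternatives for each of the 15 gene and comparison pairs, all 300 fold changes kept their sign. Each moved by less than the SD of log2 CPM between libraries of a group, pooled over the groups compared. Leaving out 1 of 4 libraries can hardly move a group mean by that SD, so this says little for those alternatives. In the yap mutant against WT the fold change ranged from -1.44 to -0.968 for rlbp1b and from -0.367 to -0.132 for DCT. Without yap mutant 3, the highest yap mutant library for RPE65, pmelb and pnp4a, the fold changes against WT were -1.4, -0.87 and -0.77.

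**Figure D2:**
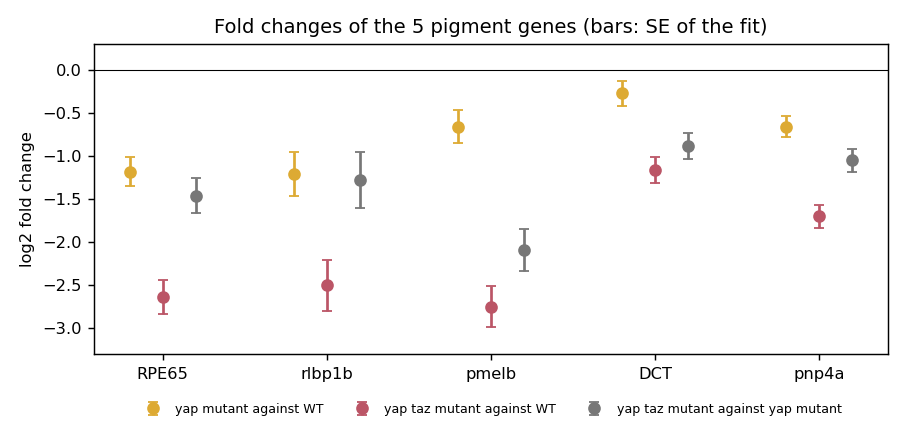
Log2 fold change (vertical axis) of the 5 genes in the 3 comparisons, with bars for the SE of the fit. RPE65 and rlbp1b lie near -1.2 in the yap mutant against WT, where pmelb and pnp4a lie near -0.66 and DCT at -0.27, while in the yap taz mutant against WT pmelb (-2.75) is level with RPE65 (-2.64).

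Ratios of counts inside a library do not depend on the scaling between libraries. They are given as a description only, since both sides of each ratio were picked on these genotypes. The log2 ratio of the summed counts of RPE65 and rlbp1b to those of pnp4a averaged 0.3 ± 0.299 in WT (SD, n = 4), and -0.24 ± 0.203 and -0.61 ± 0.235 for the yap and the yap taz mutant. Its range was -0.0088 to 0.7 in WT and -0.51 to -0.076 in the yap mutant, which do not overlap. In the yap taz mutant it was -0.76 to -0.26, which overlaps that of the yap mutant. Sums over the wider lists, without the 5 genes, did not part in this way. The summed level went from 181 ± 13.8 CPM in WT to 138 ± 8.49 CPM in the yap taz mutant for the 12 retinoid-cycle genes. For the 14 iridophore genes it went from 436 ± 27.2 to 323 ± 25.7 CPM. Such sums follow the most abundant genes. The median log2 fold changes lay further apart, at -0.75 for retinoid-cycle and -0.37 for iridophore genes in the yap taz mutant against WT. In the yap mutant against WT they were -0.36 and -0.11. The difference between the lists was not tested.

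The sum of the 2 melanin genes DCT and pmelb gave another picture, but it is mostly DCT. In yap taz mutant libraries DCT had 128 to 182 counts and pmelb 14 to 26. The sum also joins unlike changes: against WT the log2 fold change there was -2.75 for pmelb, -1.7 for pnp4a and -1.16 for DCT. pmelb stands in the list of pigment epithelium identity and support as well. The log2 ratio of DCT plus pmelb to pnp4a was 0.54 ± 0.264, 0.82 ± 0.111 and 0.8 ± 0.314 in the order WT, yap mutant, yap taz mutant, and the 3 ranges overlapped (0.28 to 0.78, 0.73 to 0.98 and 0.4 to 1.16). RPE65 to DCT was -0.11 ± 0.292, -1.04 ± 0.347 and -1.6 ± 0.342 in the same order of genotypes, with no overlap between WT and either mutant. pmelb to DCT was -1.48 ± 0.26, -1.92 ± 0.242 and -3.13 ± 0.243. For pmelb to DCT WT and yap mutant overlapped, while the highest yap taz mutant library (-2.81) was below the lowest yap mutant library (-2.12).

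**Figure D3:**
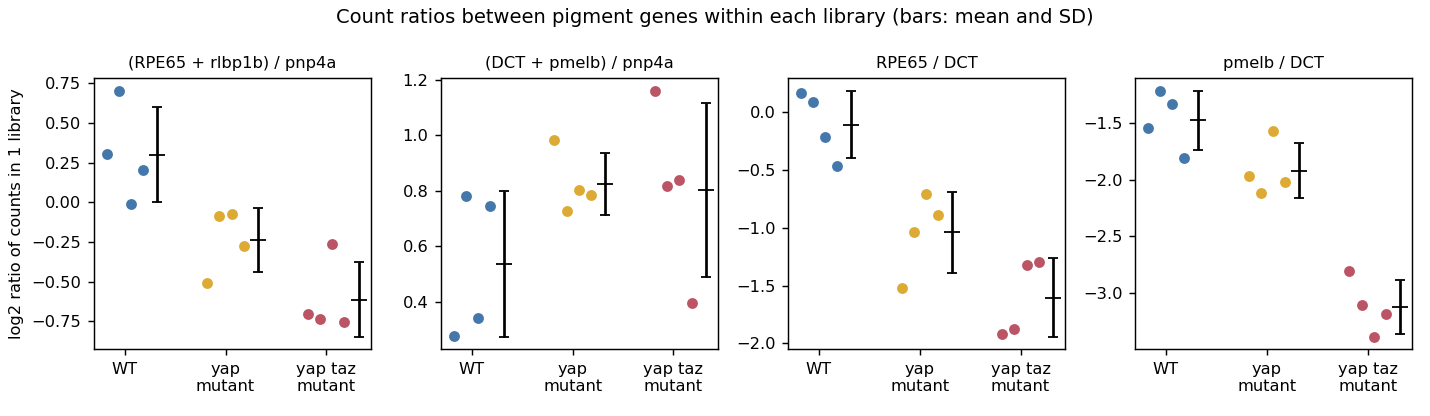
Log2 ratio of counts within a library (vertical axes, which differ in range) for 4 pairs of pigment genes, with 1 point per library and black bars for the mean and SD of 4. The mean ratio of RPE65 and rlbp1b to pnp4a is 0.3 for WT and -0.61 for the yap taz mutant, that of pmelb to DCT -1.48 and -3.13, and that of DCT and pmelb to pnp4a overlaps across genotypes.

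The other genes of the retinoid cycle and of the pigment epithelium were read from lists, without the 5 genes. The count table has 20 such further genes, and 19 of them were tested. In the yap mutant against WT 4 fell and 1 rose (edgeR quasi-likelihood test, adjusted p under 0.05), where 3.41% of all genes tested fell and 5.72% rose. The median log2 fold change of the 19 genes was -0.25, against 0.0037 for all genes. With the replicate number as a block, 2758 genes of the table were called in this comparison in place of 1780. rgrb (ENSDARG00000098724), an opsin of the pigment epithelium family that helps to isomerize retinal, fell from 23.2 ± 2.9 to 13.4 ± 2.69 CPM (-0.79, adjusted p = 0.00186). Its paralogue RGR (ENSDARG00000054890) fell from 12.7 ± 2.05 to 7.23 ± 1.64 CPM (-0.81, adjusted p = 0.0175), a call lost without WT 2 or yap mutant 1 (adjusted p = 0.0542 and 0.0617). LRAT (ENSDARG00000037278), the acyltransferase that makes the ester on which RPE65 acts, went from 6.07 ± 1.03 to 3.42 ± 0.795 CPM (-0.83, adjusted p = 0.0451). Its call was lost without WT 1, 2 or 4 or yap mutant 1, 2 or 4 or yap taz mutant 1 or 2 (adjusted p = 0.0531 to 0.142). TTR (ENSDARG00000037191), a retinol and thyroid hormone carrier also made by liver, was lower (-1.01, adjusted p = 0.025) but not without WT 2 or 3 or yap mutant 1 or 4 (adjusted p = 0.0719 to 0.0854). The gene that rose was mertka (ENSDARG00000074695), a receptor kinase for engulfment that macrophages use too, from 6.84 ± 0.663 to 11.4 ± 1.83 CPM (0.74, adjusted p = 0.0111). Together 5 genes were called, and 2 were without WT 2 or without yap mutant 1, and 3 without yap mutant 4.

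In the yap taz mutant against WT 8 of the 19 genes fell and 3 rose, where 13.8% and 13.9% of all genes did, and the median was -0.36 against 0.008 for all genes. Taken apart, 7 of 12 retinoid-cycle genes fell and 1 rose, with a median of -0.75. Of the 7 tested genes of identity and support 1 fell and 2 rose, with a median of -0.15. LRAT was at 6.45, 5.92, 4.74 and 7.19 CPM in WT 1 to 4. In yap taz mutant 1 to 4 it was at 0.968, 1.05, 2.22 and 0.675 CPM, on 5 to 15 counts a library. Every one of these was below every WT library (-2.32 ± 0.293, adjusted p = 2.73e-05), and LRAT was also lower than in the yap mutant (-1.49, adjusted p = 0.0129). Also lower than WT were RGR (-1.06, adjusted p = 0.00102), rgrb (-0.94, adjusted p = 0.000115), TTR (-1.22, adjusted p = 0.0029), the retinol dehydrogenase gene rdh5 (-0.82, adjusted p = 0.0134) and another RPE65 gene (ENSDARG00000094752), from 14.9 ± 3.16 to 9.46 ± 1.09 CPM (-0.66, adjusted p = 0.00882). The peropsin gene RRH was lower as well (-0.93, adjusted p = 0.0357), but not by DESeq2 or without WT 2, 3 or 4 or yap taz mutant 1, 2 or 4 (adjusted p = 0.0548 to 0.106). mertka (0.87, adjusted p = 0.000913), serpinf1 (0.36, adjusted p = 0.00151), which encodes a secreted epithelium-derived factor, and one of 2 genes of the retinol dehydrogenase RDH10 (ENSDARG00000012369, 0.66, adjusted p = 0.00178) rose.

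Members of the same families differed in size of change. The remaining RPE65 gene (ENSDARG00000054420) measured 3.5 ± 0.18, 2.72 ± 0.623 and 2.16 ± 0.898 CPM and did not pass the test in any comparison (adjusted p = 0.408, 0.0671 and 0.581). The second of these passed by limma-voom or without yap taz mutant 1 or 3 (adjusted p = 0.0416 to 0.0434). Reads that fit more than 1 RPE65 gene could be dropped by the counting, so the levels of these genes are uncertain to that extent. rlbp1a, the other retinaldehyde-binding protein gene, measured 46.9 ± 4.34, 26.5 ± 5.15 and 17.5 ± 3.73 CPM and fell in both mutants against WT (-0.82, adjusted p = 0.00245, and -1.42, adjusted p = 6.28e-06). Of the transcription factor genes that set up the tissue, OTX2 (ENSDARG00000011235) measured 49.2 ± 3.86, 41.3 ± 8.17 and 39.1 ± 4.59 CPM. It did not pass the test against WT (adjusted p = 0.211 and 0.0569), and the second of these passed under 8 alternatives, among them DESeq2 and upper-quartile scaling (adjusted p from 0.0187). The retinol receptor gene STRA6, at 33.5 ± 5.45, 33.3 ± 3.05 and 26.4 ± 5.97 CPM, did not pass either (adjusted p = 0.981 and 0.0881), the second passing without WT 3 or yap taz mutant 3.

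Of the melanin and melanosome genes other than DCT and pmelb none passed the test in the yap mutant, and 6 fell in the yap taz mutant. The count table has 14 such genes, of which 12 were tested. In the yap mutant against WT 0 of 12 were called by the edgeR quasi-likelihood test (1 had an unadjusted p under 0.05, DESeq2 called 0 and limma-voom 1), and the median log2 fold change was -0.047. The gene nearest the threshold was MLPH (ENSDARG00000070991), a melanophilin of melanosome transport (-0.49, adjusted p = 0.0508, and 0.0252 with the replicate number as a block). In the yap taz mutant against WT 6 of 12 fell, where 13.8% of all genes did, with a median of -0.46. Against the yap mutant 6 of 12 fell too, where 2.26% of all genes did, with a median of -0.39 against -0.00096 for all genes.

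TYRP1 (ENSDARG00000056151), a tyrosinase-related enzyme, belongs to the same protein family as DCT. It was at 149, 164, 141 and 191 CPM in WT 1 to 4. It was at 165, 136, 160 and 129 CPM in yap mutant 1 to 4. It was at 91.7, 84.2, 97.9 and 80.3 CPM in yap taz mutant 1 to 4. WT and yap mutant overlapped, and the yap taz mutant lay below both (-0.87 ± 0.107 against WT, adjusted p = 2.21e-05, and -0.74 ± 0.107 against the yap mutant, adjusted p = 0.00142). The second TYRP1 gene (ENSDARG00000029204) measured 21.3 ± 6.7, 19.4 ± 1.87 and 15.3 ± 3.62 CPM and did not pass (adjusted p = 0.0675 in the yap taz mutant against WT, passing without WT 2 or yap taz mutant 3).

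pmela, the paralogue of pmelb, measured 176 ± 22.8, 172 ± 14.4 and 128 ± 7.66 CPM. With both genes lost it fell against WT (-0.45 ± 0.0943, adjusted p = 0.00193), beside -2.75 for pmelb, and against the yap mutant (-0.43, adjusted p = 0.0169, lost without yap mutant 2 or yap taz mutant 4 at adjusted p = 0.0558 and 0.0606). mlphb, another melanophilin, fell against WT (-0.69, adjusted p = 0.00491) and against the yap mutant (-0.88, adjusted p = 0.00589). GPR143, a receptor of the melanosome membrane, fell against WT (-0.72, adjusted p = 0.00323). Against the yap mutant its difference (-0.65, adjusted p = 0.0307) was lost without any one of yap mutant 1 to 3 or yap taz mutant 1 to 4 (adjusted p = 0.0555 to 0.0938).

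TYR, the tyrosinase that starts melanin synthesis, measured 10.7 ± 1.71, 13.2 ± 2.31 and 8.45 ± 1.1 CPM. It was lower in the yap taz than in the yap mutant (-0.64, adjusted p = 0.0295) but not without yap mutant 1 or 2 or yap taz mutant 1 to 3 (adjusted p = 0.0552 to 0.108), and did not pass against WT (adjusted p = 0.125). SLC24A5, a melanosomal exchanger, was likewise lower between the mutants (-0.88, adjusted p = 0.0265), a call lost without yap mutant 1 or 2 or yap taz mutant 1 or 2 (adjusted p = 0.0617 to 0.0904). Between the mutants 2 of the 12 genes were called with yap mutant 2 left out, and 3 with yap mutant 1, or with replicate 1 or 2 of the yap taz mutant, left out. BACE2 and MLPH completed the 6 genes lower than WT in the yap taz mutant (-0.46, adjusted p = 0.0332, and -0.45, adjusted p = 0.0351). The former was lost without WT 1 or 4 or yap taz mutant 1, 3 or 4 (adjusted p = 0.0536 to 0.0994). The latter was lost without WT 1, 2 or 3 or yap taz mutant 1, 2 or 4 (adjusted p = 0.0508 to 0.106). The melanosome transporter genes SLC45A2, at 16.1 ± 4.2, 19.4 ± 2.07 and 18.8 ± 1.98 CPM, and OCA2, at 9.6 ± 2.28, 8.1 ± 3.6 and 7.44 ± 0.832 CPM, did not pass in any comparison, except SLC45A2 as higher in both mutants without WT 4 (adjusted p = 0.0421 and 0.0322).

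Genes of the melanophore lineage mostly did not pass the test. Of 6 such genes 0 were called in the yap mutant against WT by the edgeR quasi-likelihood test (3 at an unadjusted p under 0.05, 0 by DESeq2 and 0 by limma-voom) and 2 fell in the yap taz mutant against WT, where 13.8% of all genes did. The melanocortin receptor gene MC1R went from 2.51 ± 0.801 to 1.07 ± 0.0984 CPM (-1.23, adjusted p = 0.0115). kitlga, a ligand of the Kit receptor, fell (-0.46, adjusted p = 0.0203), a call lost without WT 4 or yap taz mutant 2 (adjusted p = 0.0686 and 0.072). It was also the 1 gene of the 6 that was lower between the mutants (-0.57, adjusted p = 0.0278), but not without yap mutant 1, 2 or 4 or yap taz mutant 2, 3 or 4 (adjusted p = 0.0501 to 0.1). TFAP2E, a transcription factor gene of that lineage, missed the threshold between WT and yap mutant (-0.4, adjusted p = 0.108), except as lower with the replicate number as a block (adjusted p = 0.0434) or without yap mutant 3 (adjusted p = 0.0049). KIT (ENSDARG00000043317), the receptor that melanophores need, measured 9.51 ± 0.215, 12.1 ± 2.71 and 11.1 ± 1.02 CPM (adjusted p = 0.169 and 0.308 against WT), with a call as higher in the yap mutant without yap mutant 3 (adjusted p = 0.0173). MITF (ENSDARG00000003732), one of 2 genes listed under the symbol of the master regulator of melanin-making cells, measured 3.14 ± 1.47, 2.6 ± 0.536 and 2.3 ± 0.27 CPM (adjusted p = 0.6 and 0.298).

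Iridophore genes other than pnp4a fell in part. Of 14 such genes 13 were tested, of which 1 fell in the yap mutant against WT, 5 in the yap taz mutant against WT and 3 between the mutants, where 3.41%, 13.8% and 2.26% of all genes did. The medians were -0.11, -0.37 and -0.33. defbl1, a defensin-like gene marking iridophores, was at 58.3, 52.3, 53.9 and 61.2 CPM in WT 1 to 4. It was at 27.6, 26.5, 38.2 and 23.3 CPM in yap mutant 1 to 4. It was at 9.68, 22.1, 15.8 and 12.6 CPM in yap taz mutant 1 to 4. The genotypes did not overlap (-0.97, adjusted p = 0.00293, then -1.91, adjusted p = 2.6e-06, against WT, and -0.95 between the mutants, adjusted p = 0.0116), and yap mutant 3 was again the highest of its group. apoda.1, an apolipoprotein D gene, measured 25.5 ± 3.76, 19.3 ± 1.96 and 11.3 ± 2.49 CPM. It fell in the yap taz mutant (-1.17, adjusted p = 2.47e-05, against WT and -0.78, adjusted p = 0.00774, against the yap mutant). GPNMB, a glycoprotein gene related to pmel, measured 85.5 ± 16.1, 72 ± 6.7 and 43.2 ± 9.9 CPM and fell likewise (-0.99, adjusted p = 0.000119, and -0.74, adjusted p = 0.00941).

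The remaining iridophore calls were weaker. One FHL2 gene (ENSDARG00000003991, -0.78, adjusted p = 0.0132, or 0.051 without WT 3) and one IMPDH1 gene of guanine nucleotide synthesis (ENSDARG00000029524, -0.37, adjusted p = 0.0161, or 0.0533 without WT 4) were lower in the yap taz mutant than in WT. The other FHL2 gene (ENSDARG00000042018, 0.22, adjusted p = 0.173) and the other IMPDH1 gene (ENSDARG00000042336, 0.2, adjusted p = 0.227) were not. The symbols do not tell which gene of each pair is the iridophore marker. ltk, the receptor kinase that specifies iridophores, measured 10.6 ± 2.53, 11.5 ± 1.07 and 10.5 ± 1.39 CPM. TFEC, a transcription factor of that lineage, measured 3.86 ± 1.09, 4.58 ± 0.433 and 3.63 ± 0.838 CPM. pnp4b, the paralogue of pnp4a, measured 24.9 ± 11.7, 31.6 ± 11 and 27.7 ± 1.09 CPM. These 3 genes passed the test in no comparison and under none of the alternatives, and a lower level of the size seen for pnp4a was measured in none of them.

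Xanthophore genes showed mixed changes. Of 13 such genes 12 were tested, of which 1 fell and 1 rose in the yap mutant against WT, 4 fell and 1 rose in the yap taz mutant against WT, and 1 fell between the mutants. Of all genes 3.41% fell and 5.72% rose in the first comparison, 13.8% and 13.9% in the second, and 2.26% fell in the last. The list's medians were -0.035, -0.45 and -0.21. slc2a15b, a sugar-transporter family gene of xanthophores, was at 10, 6.45, 6.36 and 8.87 CPM in WT 1 to 4. It was at 8.32, 6.21, 6.53 and 6.74 CPM in yap mutant 1 to 4. It was at 3.27, 3.29, 3.99 and 3.37 CPM in yap taz mutant 1 to 4. The yap taz mutant was below both other genotypes in every library (-1.2, adjusted p = 0.000226, and -1, adjusted p = 0.00801). SCARB1, a lipoprotein receptor gene for carotenoid uptake that the gut and liver also use, fell in the yap mutant (-0.95, adjusted p = 0.014) and in the yap taz mutant (-0.79, adjusted p = 0.0131) against WT. The pteridine genes aox5 (-0.57, adjusted p = 0.0204) and QDPR (ENSDARG00000040190, -0.43, adjusted p = 0.0286) were lower in the yap taz mutant. aox5 lost its call without WT 1 or 2 or yap taz mutant 2 or 4 (adjusted p = 0.0524 to 0.0684), and QDPR without WT 2 or yap taz mutant 1 or 3 (adjusted p = 0.0651 to 0.111). gch2, the first enzyme of pteridine synthesis in xanthophores, measured 59 ± 15.2, 59.5 ± 16.3 and 41.2 ± 6.93 CPM (adjusted p = 0.0559 in the yap taz mutant against WT, with calls as lower under 9 alternatives from adjusted p = 0.00682).

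The xanthophore gene that rose was csf1ra, a receptor gene that macrophages share. It measured 7.88 ± 1.79, 13.3 ± 4.32 and 13.8 ± 1.34 CPM. In the yap mutant it was higher than in WT (0.75, adjusted p = 0.0339), a call lost with the 8 libraries alone and without WT 1, 2 or 3 or yap mutant 1 or 4 (adjusted p = 0.0519 to 0.126). In the yap taz mutant it was higher as well (0.81, adjusted p = 0.00856). Without csf1ra 1 xanthophore gene was left among those called in the yap mutant.

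**Figure D4:**
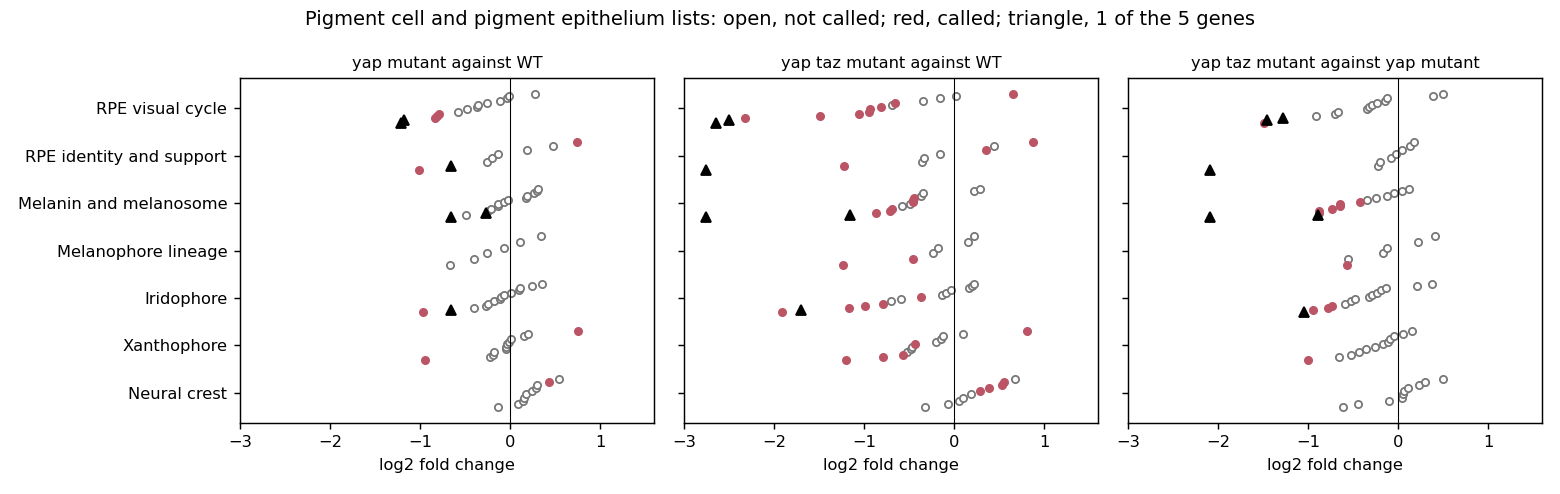
Log2 fold change (horizontal axis) of each tested gene of 7 lists in the 3 comparisons. Red points passed the test over all genes, open points did not, and black triangles are the 5 genes, shown without a test. In the melanin list 0 of 12 further genes are red in the yap mutant against WT and 6 in each of the other comparisons.

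None of the early neural crest genes was called as lower, except 1 in the yap taz against the yap mutant with WT 1 left out. Of 10 genes 1 rose in the yap mutant against WT, where 5.72% of all genes did, and 4 in the yap taz mutant against WT, where 13.9% did, with medians of 0.21 and 0.24. The latter count was 2 with no filter or without yap taz mutant 2. The 2 genes listed as SOX9 were higher in the yap taz mutant (ENSDARG00000003293, 0.55, adjusted p = 0.000546, and ENSDARG00000043923, 0.29, adjusted p = 0.0228), the first of them in the yap mutant too (0.44, adjusted p = 0.0111). The second lost its call with no filter and without WT 2 or yap taz mutant 2 or 4 (adjusted p = 0.0507 to 0.0909). snai2 was higher in the yap taz mutant (0.53, adjusted p = 0.00128), and in the yap mutant with the replicate number as a block only (adjusted p = 0.0359, or 0.085 without it). SOX10, which pigment cell precursors and glia express, was higher in the yap taz mutant as well (0.39, adjusted p = 0.0386). SOX10 did not pass with no filter or without WT 1, 3 or 4 or yap taz mutant 1, 2 or 3 (adjusted p = 0.0548 to 0.146). FOXD3 measured 20.6 ± 1.55, 23 ± 2.05 and 21.4 ± 2.54 CPM (adjusted p = 0.368 and 0.763). SOX9 and snai2 are made by cartilage and mesenchyme too, so these levels are not of pigment cell precursors alone.

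Summed levels of markers of other eye tissues moved in both directions, and whole-larva levels of such genes are not of the eye alone. The summed level of 12 further genes of the retinoid cycle was 162 to 196 CPM in WT, 153 to 159 CPM in the yap mutant and 132 to 149 CPM in the yap taz mutant. That of the 8 further genes of pigment epithelium identity and support overlapped across genotypes, at 173 to 203, 169 to 191 and 185 to 193 CPM. That of 19 photoreceptor genes was 3840 to 5420, 2350 to 3300 and 2380 to 3350 CPM in the same order. That of 12 lens genes was 4520 to 6290, 3830 to 4510 and 2730 to 3940 CPM. That of 8 Müller glia genes was higher in the mutants, at 1650 to 2160, 2230 to 2640 and 2710 to 4150 CPM without overlap. This sum rose with apoeb (means of 761, 1230 and 1980 CPM) and the 2 genes listed as GLUL. Other genes of the list were called lower. They were rlbp1a (means of 46.9, 26.5 and 17.5 CPM) and cahz (64.1, 49.6 and 47 CPM) in both mutants against WT. SLC1A3 (ENSDARG00000043148) was called lower in the yap taz mutant against WT. The list as a whole did not rise, with median log2 fold changes of -0.058 and -0.11 against WT. In the yap mutant 10 of 19 photoreceptor and 8 of 12 lens genes fell against WT, where 3.41% of all genes did. The lens count was 6 by limma-voom, 5 without yap taz mutant 4, 1 without yap mutant 4 and 0 without WT 2, 3 or 4 or yap mutant 1 or 2, whereas the photoreceptor count was 9 to 11 under the alternatives. Against WT the yap taz mutant had 12 and 9 lower and 1 of each list higher, where 13.8% of all genes fell and 13.9% rose. The photoreceptor sums of the mutants overlapped, whereas RPE65, pmelb and pnp4a differed between the mutants without overlap. Of the Müller glia genes 3 were called higher and 2 lower in the yap mutant, where 5.72% and 3.41% of all genes were. In the yap taz mutant 3 were called higher and 3 lower, where 13.9% and 13.8% were. The yap mutant count fell to 1 higher without WT 2 or 4 or yap mutant 2 or 4, and to 1 lower without WT 2 or yap mutant 2 or 4. The part of these tissues in the levels of the 5 genes was not tested.

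**Figure D5:**
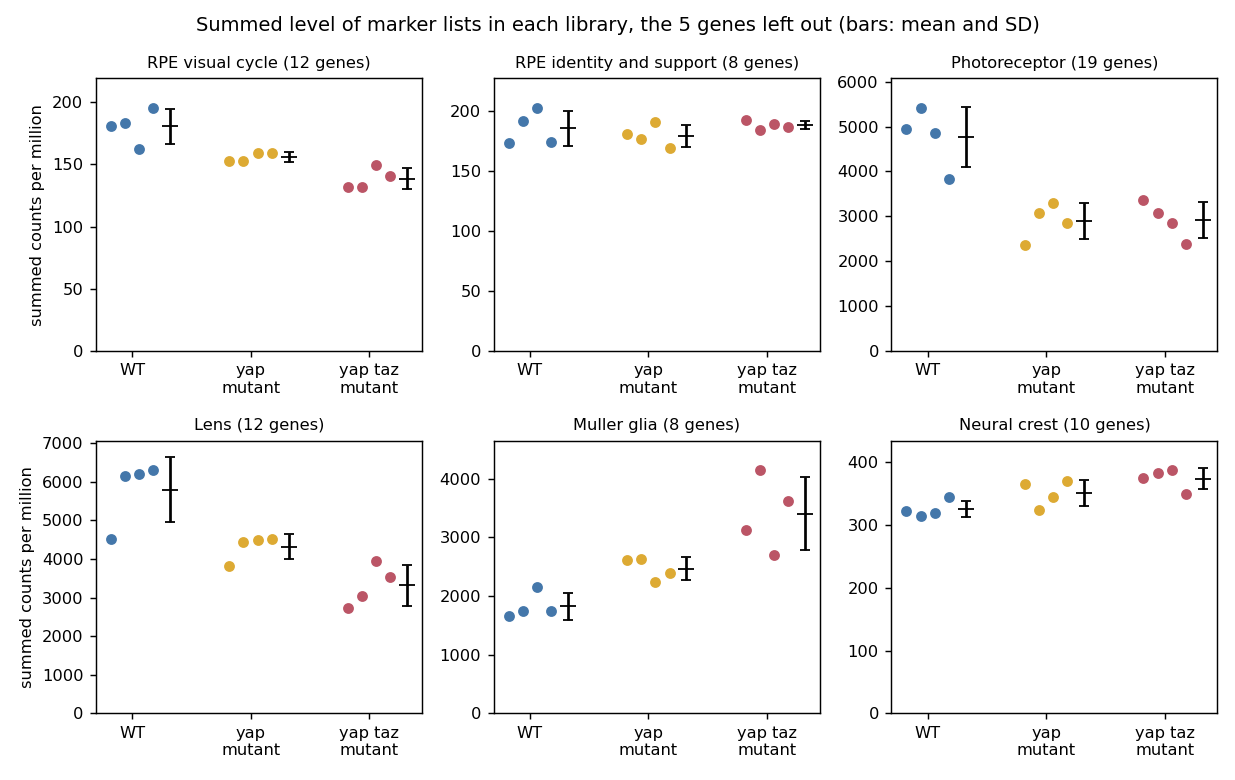
Summed level in CPM (vertical axes starting at 0) of 6 marker lists by genotype, without the 5 genes, with 1 point per library and black bars for the mean and SD of 4. Photoreceptor sums lie at 3840 to 5420 CPM in WT and at 2350 to 3350 CPM over both mutants, Müller glia sums at 1650 to 2160 CPM in WT and 2710 to 4150 CPM in the yap taz mutant, and neural crest sums at 314 to 344 CPM in WT and 350 to 387 CPM in the yap taz mutant.

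The genes most like each of the 5 in their profile were ranked by Pearson's r of log2 CPM over the 12 libraries, among 15605 other named genes whose log2 CPM averaged 1 or more. The libraries fall into 3 genotypes, so that r mostly follows the genotype means, and the correlation of the deviations from those means is given beside it. For DCT the most similar gene was TYRP1 (ENSDARG00000056151), at r = 0.986, and 0.93 for the deviations, so that DCT and TYRP1 also varied together within genotypes. For RPE65 they were scinla, a scinderin-like actin-binding protein gene (0.979 and 0.598), pnp4a (0.972 and 0.57) and CDCA7, a chromatin factor gene (0.97 and 0.768). scinla averaged 324, 165 and 71.8 CPM. For pnp4a they were RPE65, the chromatin remodeller gene HELLS (0.967 and 0.703) and the replicative helicase gene MCM2 (0.964 and 0.874).

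For rlbp1b the nearest profiles were those of prxl2b, a peroxiredoxin-like gene (0.964 and 0.892), CYP7A1, an enzyme of bile acid synthesis (0.958 and 0.807), and her15.1, a Notch target gene (0.957 and 0.784). For pmelb they were ALPL, an alkaline phosphatase gene (0.977 and 0.782), asph, a hydroxylase gene (0.977 and 0.638), and emilin1b, a matrix glycoprotein gene (0.972 and 0.714). prtfdc1a (0.966 and 0.763) and asph (0.965 and 0.798) followed TYRP1 for DCT. Among the 5 themselves r was 0.794 to 0.972 over the 12 libraries, but the deviations from the genotype means went together less: r was 0.701 for pmelb with DCT, 0.57 for RPE65 with pnp4a, and 0.154 for RPE65 with rlbp1b. These values describe 12 libraries that share their depth and scaling.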

How the data were processed

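The authors' deposited file gives unnormalized whole-number counts per Ensembl gene for the 12 libraries, made with STAR 2.3.0e and HTSeq 0.6.0 per the submitters' processing notes. Build, annotation and strand setting were not stated. After filterByExpr (at least 10 counts, 15 in total) and TMM scaling, edgeR 4.0.16 (R 4.3.3) fitted all 12 libraries by quasi-likelihood, each genotype having its own coefficient. Two-sided p-values were adjusted over 19493 genes by Benjamini-Hochberg and called under 0.05. They cover only the spread between libraries, which the labels do not tie to separate clutches. Log2 CPM used a prior count of 2, and bracketed values are log2 fold changes.

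The 5 genes and the lists were chosen with earlier results of these data known. Of 119 list symbols 110 matched, some only as a family symbol, and 2 MITF genes claimed by 2 lists were left out of both. The genes named were the 5, list genes, and the 3 highest r for each of the 5. One called list gene is counted but not reported here. No libraries were repeats (pairs of a group differed by 3.22 to 9.45 times sampling noise, chi-square per degree of freedom). Same-numbered WT and yap mutant libraries deviated together from their group means (r = 0.18, 0.306, 0.282 and 0.388, each above 0.1). The other comparisons had at least 1 such value below 0.1. The labels do not say whether the numbers mark pairs, and differently numbered libraries were not compared. The replicate block is therefore an alternative only. Alternatives were RLE and upper-quartile scaling, no filter, 1 CPM in 4 libraries, 8 libraries alone, the replicate block, each library left out, limma-voom 3.58.1 and DESeq2 1.42.0. The fit was tested on simulated data.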

Additional observations from a re-analysis of the deposited data

Results flagged for a closer look

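In 183 groups of 4 values the library farthest from the rest was compared with the spread of its group, and chance flags about 1 group in 20. In 7 groups 1 library stood apart. The log2 ratio of RPE65 and rlbp1b to pnp4a was -0.26 in yap taz mutant 3, with the other 3 libraries at -0.76 to -0.71. The second RPE65 gene (ENSDARG00000094752) was at 15 CPM in yap mutant 3, against 10.4 to 10.5 CPM in the others. rdh5 was at 4.61 CPM in WT 3, against 8.34 to 8.53 CPM. TYR was at 16.6 CPM in yap mutant 1, against 11.7 to 12.3 CPM. BACE2 was at 11 CPM in yap taz mutant 1, against 13.2 to 13.7 CPM. slc2a15b was at 3.99 CPM in yap taz mutant 3, against 3.27 to 3.37 CPM. csf1ra was at 5.24 CPM in WT 3, against 8.34 to 8.98 CPM.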

How the results depend on the processing

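All 300 alternative fold changes of the 5 genes kept their sign and moved by less than the SD between libraries. For single libraries left out, the small group size makes a larger move hardly possible. Of 116 calls of genes of the 10 lists 78 held under every alternative, and no call reversed. Of 220 gene and comparison pairs that were not called, 29 were called under at least 1 alternative. In the yap mutant against WT, where same-numbered libraries deviated together, the replicate block gave 2758 genes called (1561 higher, 1197 lower) in place of 1780. The 8 libraries alone gave 1163. Leaving out single libraries gave 942 to 3041 (942 without yap mutant 1, 954 without yap mutant 4, 1059 without WT 3, 1076 without WT 2, 3041 without yap mutant 3). Between the mutants, with 814 called, the replicate block gave 1443, and single libraries left out gave 441 to 1087 (441 without yap taz mutant 2, 468 without yap mutant 2, 497 without yap taz mutant 4, 538 without yap mutant 3). Of melanin genes in the yap mutant 1 was called with RLE size factors, upper-quartile scaling, no filter, the replicate block or limma-voom, and 0 to 1 without single libraries. Between the mutants 2 to 6 were. With the replicate block 8 iridophore genes were called in the yap taz mutant against WT, and 2 pigment epithelium and 2 xanthophore genes between the mutants. In the yap mutant against WT 1 xanthophore gene was called with the 8 libraries alone and 1 to 2 without single libraries, and 2 to 6 pigment epithelium genes without single libraries. For WT with the yap mutant the replicate block also brought TFAP2E (adjusted p = 0.0434) and snai2 (adjusted p = 0.0359) past the threshold, and beside MLPH it changed no other call of a list gene there. Depth limits rlbp1b and LRAT, with 5 to 16 counts in yap taz mutant libraries. It also limits MC1R and RRH, which averaged 1.07 and 1.17 CPM in that genotype.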
